A study of Mus musculus with 7 samples.

Results

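Interferon signalling and antiviral genes were followed in old mouse liver through 9 listed genes: Stat2, Irf1, Irf7, Isg15, Ifit1, Ifit2, Ifit3, Usp18 and Ifi47. A gene was kept where the array held a probe set that platform annotation assigned to it alone, which gave 8 of the 9 genes, of 8251 genes with such a probe set in all. Stat2 had no probe set of its own and was dropped. Of the 8, 6 are best known as targets of the alpha/beta type of interferon (Irf7, Isg15, Ifit1, Ifit2, Ifit3 and Usp18) and 2 of the gamma type (Irf1 and Ifi47). Many targets answer to both types, so the division follows what each gene is best known for.

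Total liver RNA was hybridised to 7 one-colour Affymetrix U74Av2 arrays, which formed a single group of female mice labelled phenotypically normal (+/+ or +/df), fed ad libitum and killed at 24 to 26 months of age. The titles number the samples 1, 2, 3, 4, 6, 7 and 8, and these numbers name the replicates. The labels disagree on genotype, since the title and the source name give normal animals whereas the description field gives the Ames dwarf genotype (df/df), and here the titles were followed. The labels leave unsaid whether each RNA is from an animal of its own, so p-values measure the spread between these samples, which may be partly technical, and with no second group there was no difference between conditions to test. All values are scaled signals without detection calls, and a floor of 50.04 was set, below which a signal was not told from background.

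Interferons are secreted alarm proteins. The alpha/beta type binds the receptor chains Ifnar1 and Ifnar2, and the kinases Jak1 and Tyk2 then activate Stat2, which joins Irf9 in a complex that binds the interferon-stimulated response element (ISRE) before antiviral genes. The gamma type, made mainly by T and NK cells, acts through Ifngr1, Ifngr2, Jak1 and Jak2, and many of its targets carry the gamma-activated site (GAS). In liver, hepatocytes, Kupffer cells and endothelium all carry these receptors, and most targets are held low until a signal arrives.

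The promoters of 4 members are printed here because they carry these elements and because the measured level of their genes is described below. Each is the stretch of 250 bases before the annotated start, 5′ to 3′ on the gene's strand, taken from RefSeq on GRCm38.p6, and capitals mark matches to the motif letters. The stretch lies at chr4:156200819-156201068 on the minus strand for Isg15, and at chr19:34640639-34640888, chr19:34583279-34583528 and chr11:53769764-53770013 on the plus strand for Ifit1, Ifit3 and the first of the 2 Irf1 starts.
Isg15: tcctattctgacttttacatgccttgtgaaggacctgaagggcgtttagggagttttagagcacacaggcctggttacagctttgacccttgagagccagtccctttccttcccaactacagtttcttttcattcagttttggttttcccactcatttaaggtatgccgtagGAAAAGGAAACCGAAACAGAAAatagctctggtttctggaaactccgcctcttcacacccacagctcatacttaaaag
Ifit1: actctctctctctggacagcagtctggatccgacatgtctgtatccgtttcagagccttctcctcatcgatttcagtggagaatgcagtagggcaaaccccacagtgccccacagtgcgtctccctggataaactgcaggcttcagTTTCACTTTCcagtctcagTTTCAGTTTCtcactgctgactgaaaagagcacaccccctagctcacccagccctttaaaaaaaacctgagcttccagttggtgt
Ifit3: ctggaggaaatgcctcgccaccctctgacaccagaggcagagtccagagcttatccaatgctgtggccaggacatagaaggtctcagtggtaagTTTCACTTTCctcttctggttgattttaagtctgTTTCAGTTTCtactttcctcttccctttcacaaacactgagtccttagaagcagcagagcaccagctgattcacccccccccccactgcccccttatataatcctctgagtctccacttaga
Irf1: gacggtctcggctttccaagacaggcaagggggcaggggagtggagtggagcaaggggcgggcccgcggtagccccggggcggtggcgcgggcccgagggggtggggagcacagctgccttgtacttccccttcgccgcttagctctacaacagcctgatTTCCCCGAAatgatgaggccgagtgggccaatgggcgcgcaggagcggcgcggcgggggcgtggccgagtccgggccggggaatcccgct

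The ISRE was searched as GAAANNGAAA on both strands, and the GAS as TTCNNNGAA, which reads the same on both, in the 250 bases before and the 50 after each start. Isg15 held 3 overlapping ISRE matches, whose first bases lay 78, 72 and 66 bases before the start. Ifit1 held 2, at 104 and 85 bases, and Ifit3 held 2, at 156 and 122 bases. Stat2 held 1, at 222 bases. Of all 32851 promoters of this length, 3.44% held at least 1 ISRE match and 0.225% held 2 or more. Irf1 held 1 GAS match 90 bases before its first start, and Ifit2 held 1 at 241 bases before the first of its 2 starts, against 8.30% of all promoters. No match to either set of letters fell in the windows of Irf7 or Ifi47. Usp18 had no entry. A match is a description of letters, and none of these was measured as a binding site.

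**Figure D1:**
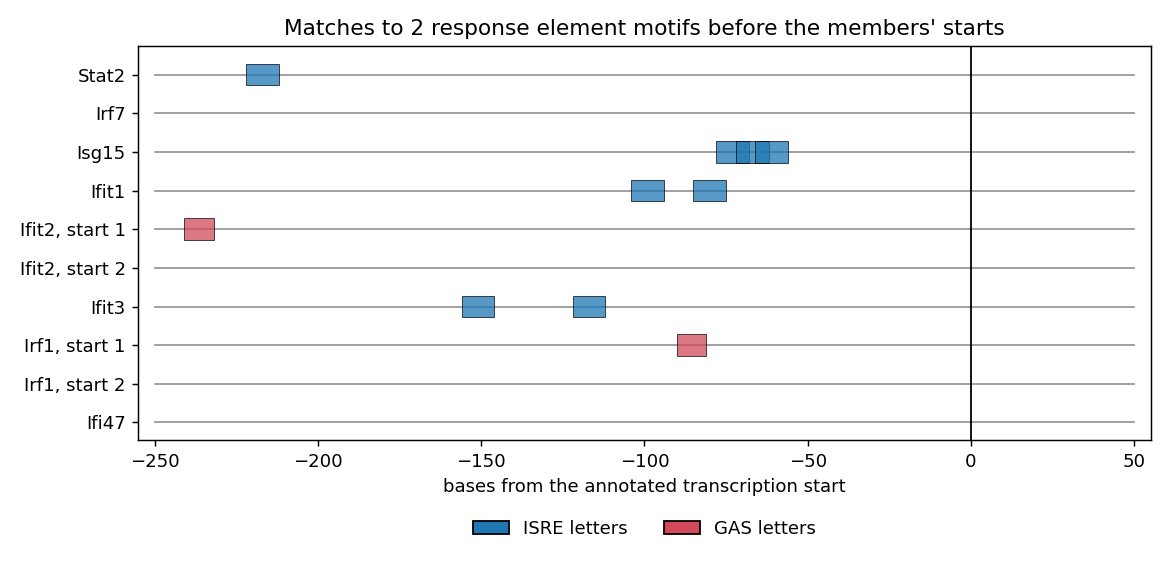
Positions of ISRE letters (blue) and GAS letters (red) in bases from each annotated start (vertical line); each grey line is 1 promoter window of 300 bases. Isg15 has 3 overlapping ISRE matches 66 to 78 bases before its start, Ifit1 and Ifit3 have 2 each, and Irf1 has 1 GAS match at its first start.

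Among other listed targets with a promoter entry, 16 of 32 alpha/beta genes and 12 of 21 gamma genes held an ISRE match, against 3.99% of all 27025 genes. A GAS match was held by 9 of those 32 and 7 of those 21, against 9.55% of genes. ISRE letters were thus held by genes of both lists.

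The regulators came first in the pathway. Irf7, the factor that amplifies alpha interferon production, had a scaled signal of 653, 434, 558, 449.5, 545, 428 and 537 on replicates 1, 2, 3, 4, 6, 7 and 8, a mean of 515 ± 82.4 (SD, n = 7). Replicate 1 was highest, and the whole range was 1.53-fold. A second Irf7 probe set, of the kind that can read related genes, gave 194, 181, 287, 293, 283, 199 and 269, lowest on replicates 2 and 1. Its correlation with the first over the 7 arrays was 0.162, so the order of the arrays for Irf7 depended on the probe set.

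Irf1, a factor induced directly through the GAS and itself a driver of antigen presentation genes, had signals of 1206, 852, 621, 791, 749, 629 and 860.4. Its mean was 816 ± 197 (SD, n = 7). Replicate 1 stood above all others, replicate 8 came next, and replicates 3 and 7 were lowest.

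Isg15, a ubiquitin-like protein that is joined to other proteins in infected cells, had signals of 661, 513, 617, 564, 697, 675 and 614, with a mean of 620.1 ± 64.9 (SD, n = 7). It was the one member above the floor whose highest array was not replicate 1 but replicate 6. Its range was 1.36-fold. Usp18, which removes Isg15 from proteins and restrains the alpha/beta receptor, had signals of 265, 137, 105, 115, 138, 163 and 175, a mean of 157 ± 53.6 (SD, n = 7). Replicate 1 was 2.52-fold above replicate 3, the lowest.

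The Ifit proteins bind viral RNA and slow its translation, and their genes lie together on chromosome 19. Ifit1 had signals of 409, 210.1, 171, 168, 183, 129.6 and 302, with a mean of 225 ± 97.4 (SD, n = 7) and a range of 3.15-fold. Ifit3 had signals of 388, 204, 86.6, 176, 185, 138 and 205, with a mean of 198 ± 93.9 (SD, n = 7) and a range of 4.48-fold. For both, replicate 1 was highest and replicate 8 second, though replicate 8 of Ifit3 lay level with replicate 2. Ifit3 has a close copy, Ifit3b, beside it, and whether the probe set reads both was not checked. Ifit2 lay between 5.4 and 26.3, below the floor on all 7 arrays, so no fold is given for it.

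Ifi47, an interferon-inducible GTPase that acts against microbes inside cells, had signals of 869, 542, 488, 416, 406, 462 and 778, a mean of 566 ± 184 (SD, n = 7). Replicates 1 and 8 stood apart from the other 5, which lay between 406 and 542. The range was 2.14-fold.

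**Figure D2:**
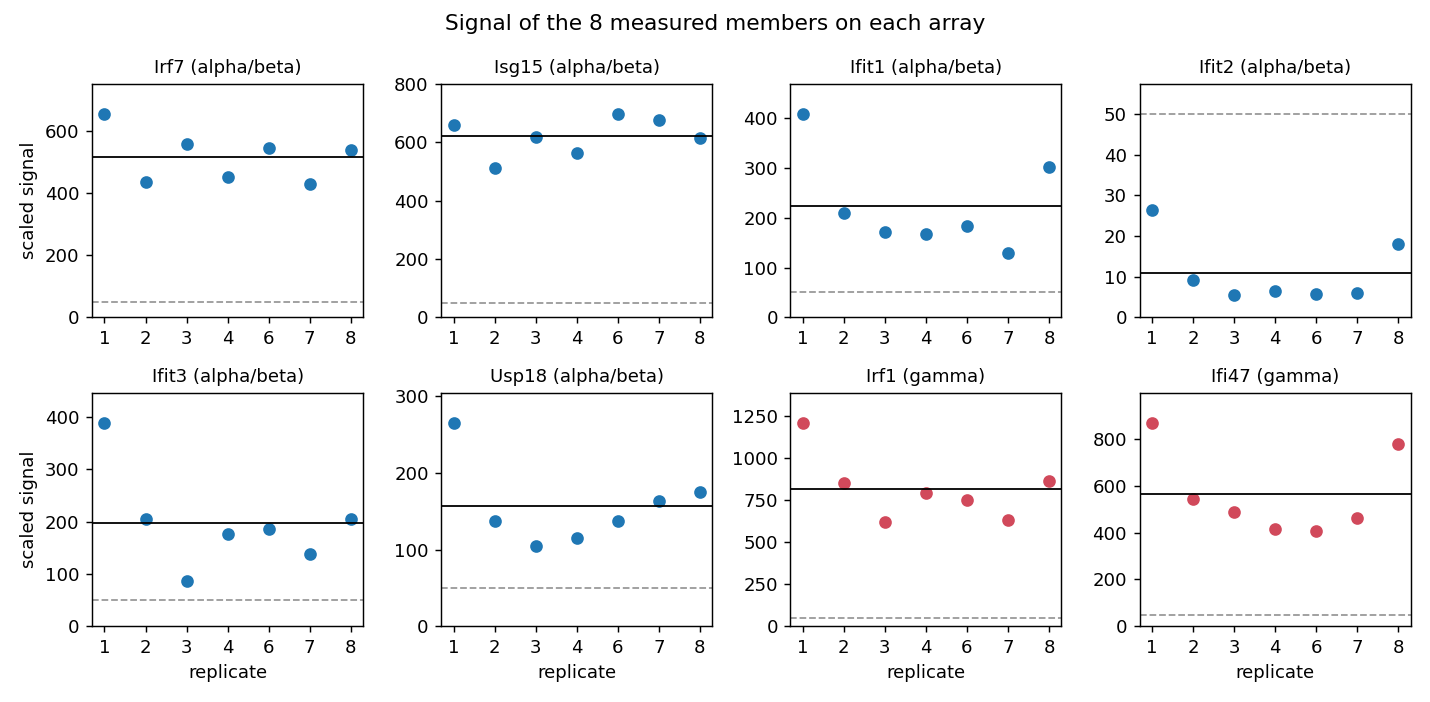
Scaled signal (linear axis from 0) of each measured member on each array; points are arrays, the solid line is the mean of the 7 arrays, and the dashed line is the floor of 50.04. Replicate 1 is highest for Irf7, Ifit1, Ifit3, Usp18, Irf1 and Ifi47, Isg15 is highest on replicate 6, and all points of Ifit2 lie below the floor.

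Replicate 1 was thus the highest array for 6 of the 7 members above the floor, where 14.4% of the 4481 tested genes had their highest value on that array. Replicate 8 was second for 5 of them: Ifit1, Ifit3, Usp18, Irf1 and Ifi47. No member was highest on replicate 8, against 13.7% of tested genes. The 2 highest arrays were replicates 1 and 8 for those 5 genes, against 4.26% of tested genes. All members come from the same arrays, so these counts are not independent of each other. The members were also chosen with earlier results of these data known. Irf7 was counted by its first probe set, whereas its second was highest on replicate 4.

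Whether a gene spread more than genes of its level was tested in limma, over genes with a mean signal of at least 200.1. Each gene's own variance was set against the prior variance at its level, with Benjamini-Hochberg adjustment. Of the members, 5 passed that filter: Irf7, Isg15, Ifit1, Irf1 and Ifi47. Ifit3, at a mean of 198, lay just under it, and Usp18 and Ifit2 lay further below. No member had an adjusted p under 0.05, nor did any tested gene (0%). Unadjusted, Ifi47 alone of the 5 was under 0.05, against 301 genes in all, or 6.72%. That count of members was 0 without replicate 1, 0 without replicate 8, 2 without replicate 6 and 3 without replicate 4. With a prior that ignores the level, Ifit1 was the 1 member under 0.05 (limma, unadjusted p = 0.0209), and Ifi47 had 0.0529.

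Ifi47 had a log2 SD of 0.43 where 0.18 was expected at its level (unadjusted p = 0.0312, limma adjusted p = 0.606). Ifit1 had a log2 SD of 0.56 where 0.29 was expected (limma adjusted p = 0.840). Irf1 had 0.32 where 0.17 was expected (limma adjusted p = 0.840). Irf7 and Isg15, with log2 SDs of 0.23 and 0.16, lay near the 0.19 and 0.18 expected. Excess spread of this size was also missed when the test was run on simulated data, so the missed threshold does not show that these genes spread no more than others.

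**Figure D3:**
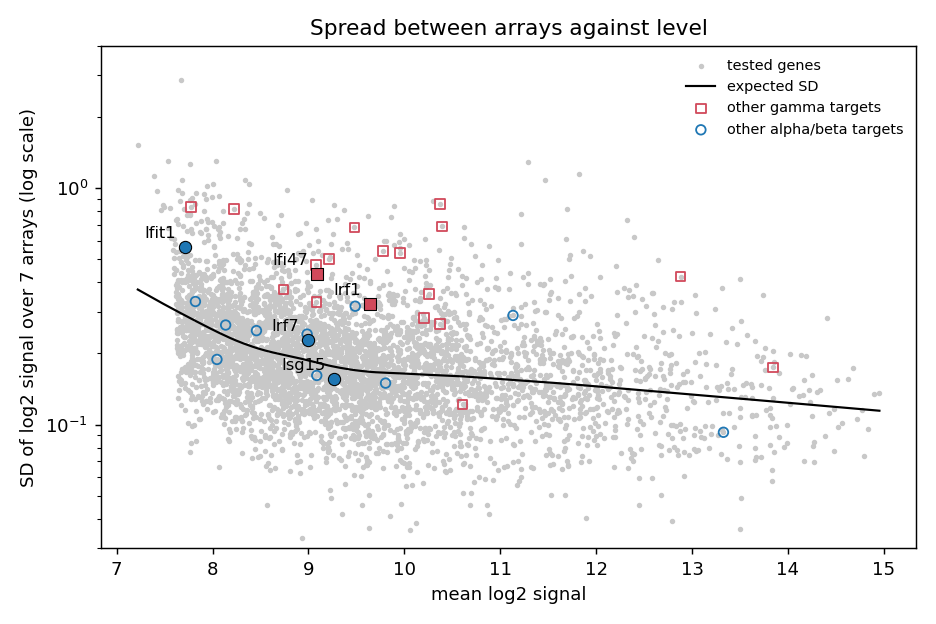
SD of the log2 signal over the 7 arrays (log axis) against the mean log2 signal; grey points are the 4481 tested genes, the black line is the SD expected at that level, filled symbols are members and open symbols other targets. Ifit1, Irf1 and Ifi47 lie above the line, and Isg15 and Irf7 lie close to it.

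The types were compared array by array through the mean over measurable members of each gene's deviation, its log2 signal less its own average. The alpha/beta type, from 5 genes, stood at 0.67 on replicate 1 and 0.20 on replicate 8. The gamma type, from 2 genes, stood at 0.64 and 0.31. On the other arrays the alpha/beta type lay between -0.35 and -0.00 and the gamma type between -0.29 and 0.05. Both types thus had replicate 1 highest and replicate 8 second. The widest gap between the types was on replicate 6, where the gamma type was lower by 0.25. With the 3 alpha/beta members that passed the filter alone, that type stood at 0.47 on replicate 1 and 0.20 on replicate 8. These levels are descriptions and carry no test.

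**Figure D4:**
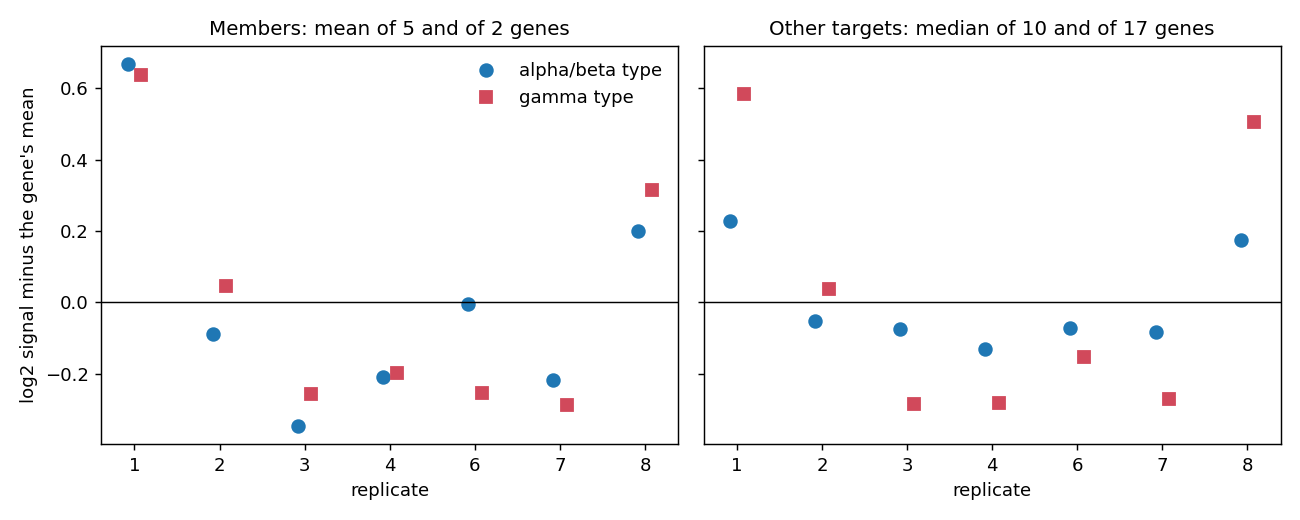
Log2 signal minus each gene's mean, by array, for alpha/beta type (circles) and gamma type (squares) genes; left, the mean over 5 and 2 members; right, the median over 10 and 17 other tested targets. In both panels replicate 1 is highest and replicate 8 second for each type, and in the right panel the gamma genes move further.

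Other targets of the gamma type numbered 32, of which 23 were measured and 17 tested. None had an adjusted p under 0.05 in the limma test, and 11 of 17 were under 0.05 unadjusted, against 6.72% of all genes. Their median deviation was 0.58 on replicate 1 and 0.51 on replicate 8, against -0.01 and 0.00 over all tested genes. Replicates 1 and 8 were the highest pair for 14 of the 17, against 4.26% of all tested genes. The median log2 SD of these 17 was 0.47, against 0.18 over all tested genes. The list was chosen with earlier results of these data known, so these counts are descriptions and not independent support.

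Igtp, a GTPase that acts on vacuoles holding microbes, ranged from 719 to 3095, with replicate 8 highest and replicate 1 next at 2826. Iigp1, of the same family, ranged from 5719 to 12028, highest on replicate 1 and then on replicate 8 at 10647. Gbp2, a guanylate-binding protein, ranged from 71.5 on replicate 4 to 402 on replicate 8. Tapbp, which loads peptides on class I molecules, was steadier, from 1381 to 1812. B2m, the light chain of class I molecules, went the other way and was lowest on replicate 1, at 12389 of up to 17368.

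Other targets of the alpha/beta type numbered 44, of which 24 were measured and 10 tested, and 2 of these, Ifih1 and Ube2l6, were also listed below by role. None was under 0.05 in the limma test, adjusted or unadjusted. Their median deviation was 0.23 on replicate 1 and 0.17 on replicate 8, and their median log2 SD was 0.25. Replicate 1 was highest for 5 of the 10 and replicate 8 for 2, and both were the highest pair for 3. Over all tested genes these shares were 14.4%, 13.7% and 4.26%. With median centring 8 of the 10 were highest on replicate 1 and 1 on replicate 8, and with quantile normalization 7 and 1. This list too was chosen with earlier results of these data known. Ifi27, a small membrane protein, reached 3419.8 on replicate 1 and lay between 1808 and 2270 on the others. Ifitm3, which blocks virus entry, lay between 9457 and 11364, and Lgals3bp, a secreted glycoprotein, between 776 and 987. Trim25, the ligase that switches on the sensor RIG-I, ranged from 520.1 to 970.3 and was highest on replicate 8. Samhd1, which depletes nucleotides that viruses need, ranged from 162 to 296 and was highest on replicate 1.

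**Figure D5:**
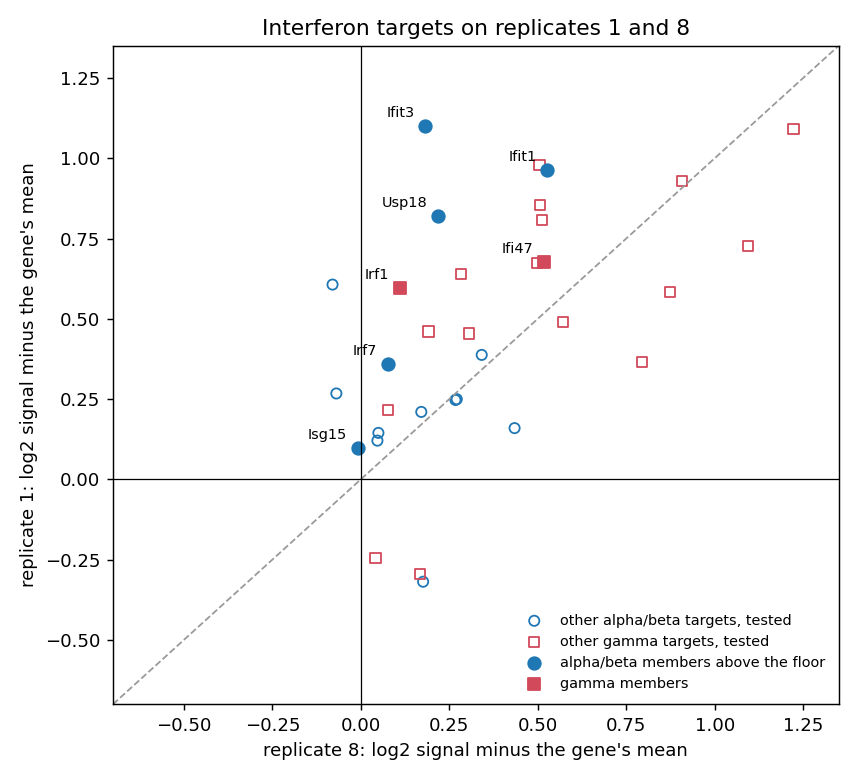
Log2 signal minus the gene's mean on replicate 1 (vertical) against replicate 8 (horizontal) for members above the floor (filled) and other tested targets (open); circles are alpha/beta type, squares gamma type, and the dashed line marks equal values. All 7 members lie above the line, as do 9 of the 17 other gamma targets and 6 of the 10 other alpha/beta targets. Of all 4481 tested genes, 2133 were higher on replicate 1 than on replicate 8.

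All 7 members above the floor were thus higher on replicate 1 than on replicate 8, from 1.08-fold for Isg15 to 1.40-fold for Irf1 among the 5 that passed the filter. For Irf7 this holds for the first probe set, whereas the second had 194 on replicate 1 and 269 on replicate 8. Of all 4481 tested genes 2133 were higher on replicate 1. Among other gamma targets 9 of 17 were, and among other alpha/beta targets 6 of 10, shares not far from that one. Neither the difference between the members and these lists nor that between the types was tested.

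Pairs of members were then compared across the 7 arrays, with exact two-sided permutation tests and adjustment over the 10 pairs of the 5 members that passed the filter. All 3 pairs within the alpha/beta type and 5 of the 6 between the types had a positive Pearson's r, with medians of 0.49 and 0.56. Without replicate 1 these counts were 1 of 1 and 1 of 4. The pairs share genes and arrays, and the share of positive r over pairs of all tested genes was not counted. Nothing is therefore read from these counts. Ifit1 with Irf1 had r = 0.907 (exact permutation p = 0.00337, adjusted p = 0.0337) and Spearman's rho = 0.821 (exact permutation p = 0.0341, adjusted p = 0.331). Each r was also taken without the 2 arrays farthest from the median of the first gene named. The arrays left out thus differ between pairs, and leaving them out narrows that gene's range. For Ifit1 with Irf1 these were replicates 1 and 8, and r was then 0.741. Ifit1 with Ifi47 had r = 0.910 (exact permutation p = 0.00972, adjusted p = 0.0486) and rho = 0.750 (exact permutation p = 0.0663, adjusted p = 0.331). Without both replicates 1 and 8 the r of Ifit1 with Ifi47 fell to 0.308. With replicate 1 alone left out it was 0.819, and with replicate 8 alone left out 0.894. Both pairs that passed the threshold join an alpha/beta gene to a gamma gene, as do 6 of the 10 pairs tested. Both also contain Ifit1, so nothing is read from this about the types. Without replicate 1, Ifit1 fell under the filter and neither pair was in the family, and r was then 0.769 and 0.819. Without replicate 2, 6, 7 or 8, one at a time, 0 pairs passed the threshold although r lay between 0.880 and 0.957 for both. Without replicate 3 or 4 Ifit1 with Irf1 passed and Ifit1 with Ifi47 did not (exact permutation, adjusted p = 0.0625 and 0.0764).

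Irf1 with Ifi47, the one pair within the gamma type, had r = 0.756 and rho = 0.679 (exact permutation p = 0.0458 and 0.110, adjusted p = 0.153 and 0.365), and r = 0.542 without replicates 1 and 3. Irf7 with Isg15 had r = 0.493 and rho = 0.286 (exact permutation p = 0.260 and 0.556, adjusted p = 0.372 and 0.695), and r = 0.700 without replicates 2 and 7. Isg15 with Ifi47 had r = 0.03 and rho = -0.32 (exact permutation p = 0.959 and 0.498, adjusted p = 0.974 and 0.695), and r = 0.385 without replicates 2 and 6. With 7 arrays an r near 0 does not show that Isg15 and Ifi47 are unrelated.

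With Ifit3 and Usp18 added there were 21 pairs, and all 10 within the alpha/beta type and 9 of 10 between the types had a positive r. The share over pairs of all tested genes was not counted here either. Ifit3 with Irf1 had r = 0.949 and rho = 0.964 (exact permutation p = 0.000595 and 0.00278, adjusted p = 0.0125 and 0.0583), and r = 0.965 without replicates 1 and 3. In this family Ifit1 with Irf1 kept an adjusted p of 0.0354 by exact permutation, and Ifit1 with Ifi47 had 0.0681. Ifit1 with Ifit3 had r = 0.790 and rho = 0.893 (exact permutation p = 0.0327 and 0.0123, adjusted p = 0.122 and 0.129), and r = 0.406 without replicates 1 and 8. Isg15 with Usp18 had r = 0.378 and rho = 0.357 (exact permutation p = 0.408 and 0.444, adjusted p = 0.516 and 0.687), and r = 0.642 without replicates 2 and 6.

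For each member that passed the filter the most alike of 4476 other tested genes were found by Pearson's r over the 7 arrays, a description with no test that shares arrays, scaling and depth of signal. Ifi47 was closest to Iigp1 (r = 0.996), followed by Apof (0.957) and Nampt (0.947). Irf1 was closest to Oaz2 (0.986), Plgrkt (0.984) and Psme1 (0.975). Ifit1 was closest to Tapbp (0.981), Psmb9 (0.979) and Uox (0.979). Isg15 was closest to Cdk4 (0.963), Aup1 (0.948) and Dcaf12 (0.946), and Irf7 to Nectin2 (0.953), Zfand6 (0.929) and Camk2b (0.914). Iigp1, Psme1, Tapbp and Psmb9 are on the list of gamma targets, and none of the 6 genes nearest to Isg15 and Irf7 is on a target list. An r over 0.9 was reached by 19 genes for Ifi47, 27 for Irf1, 20 for Ifit1, 14 for Isg15 and 5 for Irf7. Each count is out of 4476 genes. How many a gene outside the members would reach was not counted, so nothing is read from these counts.

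Few ligands could be tested. Of 15 listed ligands and inducers 13 were measured and 3 tested, and none of the 3 was under 0.05 unadjusted. Ifng lay between 2.6 and 11.4, below the floor on all 7 arrays, and Ifnb1 was below it on 5, both chosen after their values were seen. Ifnab, with 208 to 341, and Ifna5, with 147 to 268, were above it on all 7, as were Ifna2, with 134 to 278, and Ifna9, with 106 to 239, named after their values were seen. All 4 were read by probe sets that can take up other members of the alpha family. Il18, which promotes gamma interferon production, lay between 176 and 312 and was highest on replicates 4 and 1. Replicate 1 was the highest array for none of the 3 tested ligands, against 14.4% of all tested genes. With so few ligands this count cannot be told from that share.

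Receptors and kinases were all measured, 8 of 8, and 6 were tested, of which 1 was under 0.05 unadjusted. That gene was Il10rb, a chain shared by the receptors of interferon lambda and interleukin 10, at 199 on replicate 1 and 374 to 505 on the others (unadjusted p = 0.0351, limma adjusted p = 0.636). Tyk2 was also lowest on replicate 1, at 209.7 of up to 445. Ifnar2 lay between 378 and 490.1 and Jak1 between 973 and 1099.7, with little difference between arrays.

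Among STAT and IRF factors 7 of 11 were measured and 6 tested, none under 0.05 unadjusted. Irf9, the partner of Stat2, had 920.4 on replicate 1 and 803 on replicate 8 against 579.9 to 652 on the others, and Ifit1 had the same pair highest. Stat3, which serves interleukin 6, lay between 997 and 1449.7 and was highest on replicate 6. Rela, a subunit of NF-kappaB, lay between 2247 and 3054. Sensors and adaptors numbered 16, with 5 measured, 4 tested and none under 0.05 unadjusted. Ifih1, which senses long viral RNA, was highest on replicate 1, with a range of 475 to 654, as was Myd88, the Toll-like receptor adaptor, with 219 to 319. Tbk1, a kinase that activates Irf3, lay between 362 and 444. Its relative Ikbke was highest on replicate 7, with a range of 292 to 596.

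Brakes on the pathway and the enzymes that attach Isg15 numbered 12, with 11 measured, 4 tested and none under 0.05 unadjusted. Against 4.26% of all tested genes, 3 of the 4 had replicates 1 and 8 as the highest pair. Uba7, which activates Isg15, had 811 and 692 on them against up to 629 elsewhere, and Ube2l6, its conjugating enzyme, had 602 and 610.4 against up to 546. Ptpn1, a phosphatase that acts on Jak2 and Tyk2, had 485 and 514 against up to 359. Cish, a target of growth hormone and cytokines, did otherwise, with 561 on replicate 3 and 345 on replicate 1. Replicates 1 and 8 were thus highest for both enzymes that attach Isg15, whereas replicates 6 and 7 were highest for Isg15 itself.

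Other features also moved with these arrays. Hepatocyte markers were present throughout, with Alb between 28122 and 37770. In a list of skeletal muscle genes the summed signal was 9875 on replicate 1 and 4574 on replicate 2, and between 939 and 1321 on the others, with Acta1 at 5991 and 2034. All 5 tested muscle genes were highest on replicate 1, as were 14.4% of all tested genes. Of the untested ones, named after their values were seen, Tnnt3 and Tnni2 were also highest there. Ckm and Myh4 were instead lowest on replicate 1, at 144 and 102.6, and Ckm was highest on replicate 8, at 209.5. Replicate 1 was also highest for 6 members, while replicate 2 was highest for no member. The part of muscle RNA in the members' values on replicate 1 was not tested. On replicate 8 muscle markers were at their lowest sum, 939.

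Antigen-presenting and dendritic markers had their highest sum on replicate 8, 9891, then 9302 on replicate 2 and 8144 on replicate 1, and their lowest on replicate 4, 4372. Class II genes carried that sum, with Cd74 at 4619, H2-Aa at 1691, H2-Eb1 at 1291 and H2-Ab1 at 1113 on replicate 8. The dendritic markers Flt3, Itgax and Xcr1, named after their values were seen, were instead lowest on replicate 1, at 563, 210.2 and 177. Macrophage markers summed to between 7176 and 9606, highest on replicate 7, and Clec4f, the Kupffer cell marker, lay between 1348 and 1889. T and NK markers summed to between 1559 and 2778, with the lowest sum on replicate 1. Zap70 alone carried most of that sum, with 1043 on replicate 1 and 2041 on replicate 4. Cd4, the other tested marker, was lowest on replicate 2, at 148, and stood at 279 on replicate 1. Of the 12 measured, 6 were below the floor on all 7 arrays, Cd3d, Cd3g and Cd8a among them. B cell markers summed to between 2302 and 2613, neutrophil markers to between 737 and 1053, and endothelial markers to between 2525 and 3964. None of these 3 sums was highest on replicate 1 or 8. The neutrophil markers S100a8, S100a9 and Ngp, named after their values were seen, were however highest on replicate 1, at 161, 90.5 and 51.4, and second on replicate 8, at 98.4, 55.1 and 46.2. Of these, S100a9 was below the floor on 5 arrays and Ngp on 6. The other measured neutrophil markers were highest elsewhere: Camp, Mpo and Cxcr2 on replicate 6, Elane on replicate 3 and Ltf on replicate 2. Cxcr2 was below the floor on 5 arrays and Ltf on 3. Camp and Elane, the 2 that were tested, stood at 244 and 143 on replicate 1, the lowest array for Elane. In whole liver, fewer cells of a type and less RNA per cell cannot be told apart, and the part of these cells in the members' values was not tested.

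Spike-in controls divided the arrays into replicates 1 to 4, with a mean log2 signal of 10.64 to 10.97, and replicates 6 to 8, with 10.20 to 10.24. Replicates 1 and 8 fell in different sets. With the means of these sets removed, r was 0.907 for Ifit1 with Irf1 (permutation test, adjusted p = 0.0298). For Ifit1 with Ifi47 it was 0.913, which no longer passed (permutation test, adjusted p = 0.0813). The remaining values were permuted over all arrays and not within the sets, so these 2 p-values are approximate. The 3′ to 5′ ratio of Gapdh, a measure of RNA integrity, ran from 0.79 to 0.91 and was highest on replicate 1, and that of actin ran from 1.31 to 1.78, with 1.34 on replicate 1. Between 27.5% and 29.6% of probe sets on an array lay below the floor, most on replicate 1 and then on replicate 8, at 29.2%. Their part in the members' values was not tested.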

How the data were processed

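The authors deposited 1 intensity per probe set and array, on a linear scale, from Affymetrix U74Av2 arrays read with a GeneArray scanner, per the labels; their software and scaling are not given in the sources used. The table held 12488 probe sets, 66 of them controls, and annotation gave 10833 a single gene. Arrays were brought to a common mean after trimming 2% at each end, signals under 0.1 of it (50.04) were raised to that floor, and logs to base 2 (log2) followed. The brightest probe set stood for a gene, and tests took genes averaging 0.4 of that common mean (200.1) or more. Signals in the text are scaled intensities before the floor, as means ± SD. The number of arrays limits the precision.

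All 7 samples formed 1 group. An intercept-only model in limma 3.58.1 (R 4.3.3) set each gene's variance against a robust, level-dependent prior (prior degrees of freedom 5.61) by a one-sided F test for excess variance, adjusted after Benjamini and Hochberg. The step was tested on simulated data, where it missed modest rises in SD and found only large ones. Pairs were compared over all 5040 pairings in Python 3.11.15 (numpy 2.4.6, pandas 2.3.3, scipy 1.17.1), and plots used matplotlib 3.10.9.

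The members, the gene lists and the types were chosen with earlier results of these data known. The text names all members. From each other pathway list it names up to 3 of the brightest and up to 2 of the most variable tested genes. For cell type lists it gives the sums and some of the genes so chosen, and for each tested member the 3 most alike genes. Ifng, Ifnb1, Ifna2, Ifna9, Cd3d, Cd3g, Cd8a, Flt3, Itgax and Xcr1 were named after their values were seen. So were S100a8, S100a9, Ngp, Ltf, Mpo, Cxcr2, Ckm, Myh4, Tnnt3 and Tnni2. Alternatives covered scaling (none, by median, by quantiles), the floor (0.05, 0.2, or an offset), the filter (0.2, 0.8, or none), averaged probe sets, other priors, the spike-in set as a term and each array left out; leaving out replicates 1 and 2 together was added after seeing the data.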

Additional observations from a re-analysis of the deposited data

Results flagged for a closer look

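Of 64 genes checked for an array far from the other 6, 4 were singled out, and none was a member. The measure is the gap to the nearest array over the whole range, both taken on log2 signals. It was set against Dixon's 95% limit for 7 samples, and chance passes about 1 gene in 20. The signals given beside it are on the linear scale, on which the measure takes other values. Il10rb had 0.679, with replicate 1 low at 199 against 374 for the next. Elane, a neutrophil enzyme, had 0.694, with replicate 1 low at 143 against 230.4. Ifi27 had 0.643, with replicate 1 high at 3419.8 against 2269.8. Pax5, a B cell factor, had 0.629, with replicate 4 low at 146 against 237.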

How the results depend on the processing

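Of the compared values, 417 kept their direction and side of the threshold, 40 moved and 3 reversed. A further 1 came to pass the threshold and 18 no longer passed it. All 18 were r of Ifit1 with Irf1 or with Ifi47, judged by adjusted p. In those settings r ran from 0.769 to 0.938 for Ifit1 with Irf1, against 0.907 in the main one. For Ifit1 with Ifi47 it ran from 0.814 to 0.957, against 0.910. So r was not always smaller where the threshold was missed. The count of genes past the test of spread was 0, and 1 when an offset replaced the floor; with each replicate left out it ran from 0 to 1, and the gene was the muscle actin Acta1 each time. Members with an unadjusted p under 0.05 numbered 1, but 2 with the mean of all probe sets, 2 with the filter at 0.2, 0 with no filter and 0 without both replicates 1 and 2, and 0 to 3 with each replicate left out. Pairs past the threshold numbered 2, but 0 with the filter at 0.8, 1 with the array set as a term, 0 without both replicates 1 and 2, and 0 to 3 with each replicate left out. Ifit1 fell under the filter at 0.8, without both replicates and without replicate 1, so its pairs were not in those counts. Positive pairs within the alpha/beta type numbered 3, but 10 with the filter at 0.2 or none, 1 with the filter at 0.8, 1 without both replicates, and 1 to 6 with each replicate left out; between the types they numbered 5, but 9, 3 and 2 under the same settings, and 1 to 8. How many members entered differed between these settings. The r of Isg15 with Ifi47, 0.03, was -0.19 without both replicates and ran from -0.24 to 0.30 with each replicate left out. Without the filter 110 genes were under 0.05 unadjusted, against 301; the cause was not tested. The alpha/beta level on replicate 1 ran from 0.47 to 0.74 and the gamma level from 0.59 to 0.71. No paired analysis was possible because there was a single group.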
